A study of Homo sapiens with 3 samples.

Results

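The LINC symbols are the systematic names given to human genes for long intergenic non-coding RNAs. This account covers the 37 symbols made of LINC and digits alone that had at least 5 counts in each of 3 HEK293 libraries, out of 876 such LINC names and 26485 gene names in the tables. The genes were selected on the counts themselves, so their levels are given as a description. The other 839 LINC names fell short of the minimum. Of all LINC names 4.22% passed it, beside 14.3% of all gene names, of which 3798 passed.

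The 3 libraries formed a single group (n = 3) of HEK293 cells in 1 condition, an established line made from human embryonic kidney by transformation with adenovirus DNA and grown here in DMEM with fetal calf serum. Ribosomal RNA was removed from total RNA before a strand-keeping library kit was used, although the sample titles speak of mRNA sequencing. There was no second condition, so the data answer which LINC genes collected counts, where those genes lie and which of them differed between libraries. No label says that the replicates were separate cultures, so p-values measure the spread between these 3 samples, which may be technical.

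Gene-assigned counts were 412066, 483114 and 289241 in replicates 1, 2 and 3, which is 2.02% ± 0.396 (SD, n = 3) of all records. Records without a gene made up 91.2% ± 0.472, and TSIX, the antisense transcript of XIST, alone held 17.9%, 28.5% and 17.1% of the gene-assigned counts. The strand option of the counting is not stated in the labels, so a count under a name cannot be placed on a strand. A level given here is thus that of the counts under a name, and whether they came from RNA of that gene was not tested. Of 10 HEK293 markers 6 had a count in every library, including LIN28A at 49, 49 and 19 and LIN28B at 10, 7 and 2. PAX2 was at 0 in every library, and PAX8 (0, 0 and 1), NEFM (0, 1 and 0) and KRT18 (1, 0 and 0) were near 0. Summed counts of the 10 markers were 154, 114 and 87. Of 8 markers of liver, blood, muscle and endothelium 7 were at 0 in every library, with summed counts of 5, 3 and 0. At this depth 1 count was worth 2.29, 2.31 and 3.30 CPM (counts per 1000000 of a library size scaled by TMM, the trimmed mean of M values), and a count of 0 allowed up to 6.86, 6.92 and 9.89 CPM, the worth of 3 counts. These limits and the intervals below cover counting error only.

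Long intergenic RNAs are transcribed by RNA polymerase II and are usually capped, spliced and polyadenylated like mRNAs, but hold no long open reading frame. They tend to be scarcer than mRNAs, many stay in the nucleus, and their exons often contain pieces of transposable elements. A few have a worked-out role or act on a gene next to them. Most LINC numbers record only that a transcript was annotated.

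Counts under the 37 LINC genes summed to 2417, 2551 and 1321. These were 0.587% (Wilson 95% interval 0.564 to 0.610), 0.528% (0.508 to 0.549) and 0.457% (0.433 to 0.482) of the gene-assigned counts, 0.524% ± 0.0650 on average. Replicate 1 had the highest share and replicate 3 the lowest, with intervals that did not overlap. With TSIX left out of the totals the shares were 0.714%, 0.738% and 0.551%, so that replicate 2 was highest and replicate 3 still lowest. The 37 genes held 77.8% ± 3.30 of all LINC counts, and the other LINC names held the remainder, 566 of them without any count. The median LINC gene had 43.3 CPM, against 63.0 CPM for all names past the same minimum, on a scale that does not correct for length. The 37 genes spanned 15.4 to 2074 CPM, and 29 of the 37 lay under 100 CPM.

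**Figure D1:**
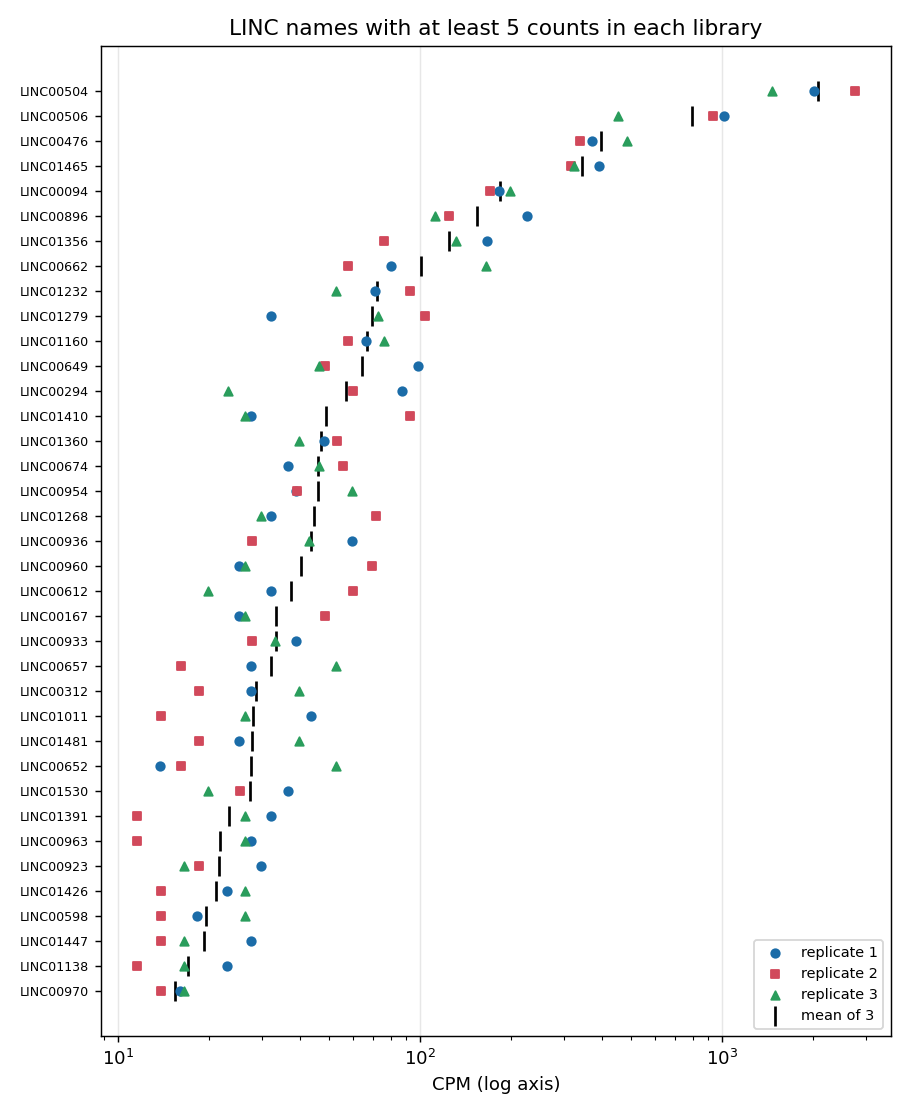
Level of each of the 37 LINC genes in each library, in CPM on a log axis, ordered by the mean of 3 libraries (black tick). LINC00504 and LINC00506 stand to the right of the rest with means of 2074 and 797 CPM, and 29 genes have means under 100 CPM.

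LINC00504 and LINC00506 headed the list. LINC00504 (GRCh38, chromosome 4, 14470465 to 14888169, minus strand, 10 merged exon blocks, opposite a gene body alone, with no exonic bases opposite its own exons) had 879, 1191 and 445 counts, a mean of 2074 ± 642 CPM (SD, n = 3). LINC00506 (chromosome 3, 87089129 to 87157069, plus strand, 6 blocks, no gene opposite) had 442, 403 and 137 counts, a mean of 797 ± 302 CPM. Both were lowest in replicate 3, and LINC00504 was highest in replicate 2. The pair held 53.7% ± 9.25 of all counts under the 37 genes, LINC00504 alone 38.9% ± 6.86. Among all gene names LINC00504 ranked 44 and LINC00506 ranked 158 by mean CPM.

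Both transcripts are largely made of sequence that recurs in other genes. The longest GENCODE transcript of LINC00504 has 4672 bases, of which 75.6% matched transcripts of genes elsewhere at 90% identity or more over at least 100 bases, in 814 other genes. For LINC00506 it was 85.4% of 4300 bases, in 60 other genes. A shared block of 3391 bases in LINC00504 and of 3674 bases in LINC00506 carried nearly all of it, and the best match of either was to a transcript of SOD2 (93.1% over 3374 bases on the reverse strand, and 91.7% over 3670 bases on the same strand). LINC00504 and LINC00506 matched each other over 875 bases at 93.6%, in opposite orientation, and LINC00504 matched KCNQ1OT1, a long antisense RNA of an imprinted locus, over 3372 bases at 93.4% in the same orientation.

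KCNQ1OT1, which is no LINC gene and was looked at after its values were seen, had 1140, 1508 and 598 counts, 2684 ± 756 CPM, rank 26 of all names. Counts of LINC00504 were 0.771, 0.790 and 0.744 of those of KCNQ1OT1, a ratio of 0.768 ± 0.0229 (SD, n = 3), so the ratio varied little although the counts of each name differed more than 2-fold between replicates 2 and 3, which are of unequal depth. Counts of LINC00506 were 0.388, 0.267 and 0.229 of those of KCNQ1OT1, which was a wider spread. SOD2, the mitochondrial superoxide dismutase with the best match to the repeat, had 0, 1 and 1 counts. Whether reads of the repeat add to the counts of these names was not tested, since the tables do not hold alignments.

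Next came 6 genes with means of 100 CPM or more. LINC00476 (chromosome 9, 95759231 to 95875977, minus strand) had 162, 147 and 147 counts, 398 ± 76.6 CPM. LINC01465 (chromosome 12, 62601751 to 62603690, minus strand, a single exon) had 171, 137 and 98 counts, 343 ± 41.4 CPM. LINC00094 (chromosome 9, 134025439 to 134034666, plus strand), now named BRD3OS for the gene BRD3 on the other strand, had 80, 74 and 60 counts, 184 ± 13.6 CPM. In each of these the highest library was at most 1.43 times the lowest in CPM. LINC00896 (chromosome 22, 20206397 to 20208524, plus strand, a single exon) had 99, 54 and 34 counts, 154 ± 62.7 CPM. LINC01356 (chromosome 1, 112820170 to 112850643, minus strand) had 73, 33 and 40 counts, 125 ± 45.8 CPM. LINC00662 (chromosome 19, 27684580 to 27793940, minus strand) had 35, 25 and 50 counts, 101 ± 56.5 CPM, and 66.9 CPM without replicate 3. LINC00896 and LINC01356 were highest in replicate 1 and LINC00662 in replicate 3. Of these 6 genes LINC01356 shared 71.9% of its longest transcript with genes elsewhere, LINC00476 10.8% and LINC00094 4.65%. The longest transcripts of LINC01465, LINC00896 and LINC00662 shared none. That of LINC00662 has 2480 bases, while its merged exons have 7958, and its other exonic bases were not searched.

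Levels were also taken per kilobase of merged exon, a length that counts the exons of all annotated transcripts of a gene. The median was 12.7 CPM for the LINC genes that could be placed and 14.5 CPM for all names past the minimum. The median exon length was 3469 bases against 4822. LINC00504 still led with 407 CPM per kb. LINC01465 followed with 177, then LINC00506 with 159, LINC00476 with 78.0 and LINC00896 with 72.5. The lowest was LINC00598 at 1.06 CPM per kb, a gene of 42 exon blocks and 18352 exonic bases, whose longest transcript has 3541 bases. Of the 12 highest genes by CPM, 8 were also among the 12 highest per kilobase.

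The tail of the list rests on few counts. LINC01232 had 31, 40 and 16 counts, 71.9 ± 19.8 CPM. LINC01279 had 14, 45 and 22 counts, 69.4 ± 36.0 CPM, and LINC01160 had 29, 25 and 23 counts, 66.6 ± 9.09 CPM. LINC01160 was the steadiest of these and LINC01279 was lowest in replicate 1. In RefSeq the symbol LINC01279 is an older name of CCDC80, a secreted matrix protein gene on chromosome 3 that the tables also list, at 1, 0 and 1 counts. Between these and the edge of the rule, LINC00674 had 16, 24 and 14 counts, LINC00954 had 17, 17 and 18, LINC00312 had 12, 8 and 12, LINC01011 had 19, 6 and 8, LINC01530 had 16, 11 and 6 and LINC00598 had 8, 6 and 8. None of those 6 was called for variation between libraries. LINC00954 had nearly equal counts in all 3, which at their unequal depth were 38.9, 39.2 and 59.3 CPM. At the edge of the rule 6 genes had a lowest count of 5: LINC01391 (14, 5 and 8 counts, 23.3 CPM), LINC00963 (12, 5 and 8, 21.8 CPM), LINC00923 (13, 8 and 5, 21.5 CPM), LINC01447 (12, 6 and 5, 19.2 CPM), LINC01138 (10, 5 and 5, 17.0 CPM) and LINC00970 (7, 6 and 5, 15.4 CPM). Just outside it 12 LINC names had a lowest count of 4. The highest of them were LINC00910 (42, 32 and 4 counts, 61.0 CPM), LINC00174 (10, 43 and 4, 45.1 CPM), LINC01521 (22, 4 and 14, 35.2 CPM), LINC00092 (18, 13 and 4, 28.1 CPM), LINC01159 (9, 18 and 4, 25.1 CPM) and LINC01560 (9, 4 and 10, 20.9 CPM). The first of these had more counts in all than most of the genes inside the rule, and a single low library kept it out.

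Sequence shared with other genes was not confined to the highest names. Only the longest transcript of each gene was searched. Over the 34 LINC genes with a GENCODE transcript the median share was 11.99% and 25 (73.5%) had some. Among the 260 LINC names with a count that did not pass, the median was 2.65% and 132 (50.8%) had some, and among the 541 with no count it was 0% and 94 (17.4%). With transcripts of at least 2000 bases alone, the medians were 11.3% for 27 passing genes, 5.03% for 147 with fewer counts and 0% for 173 with none. A shared block of 1000 bases or more occurred in 5 passing genes (14.7%), against 3.85% and 1.85% of the other sets. Besides LINC00504 and LINC00506 these were LINC01410, LINC00657 and LINC01447. At 95% identity the median was 0% in every set, and 10 of the 34 genes (29.4%) kept some shared sequence, against 17.7% and 6.84%. This comparison was chosen after the counts were seen, and no test was made of it.

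**Figure D2:**
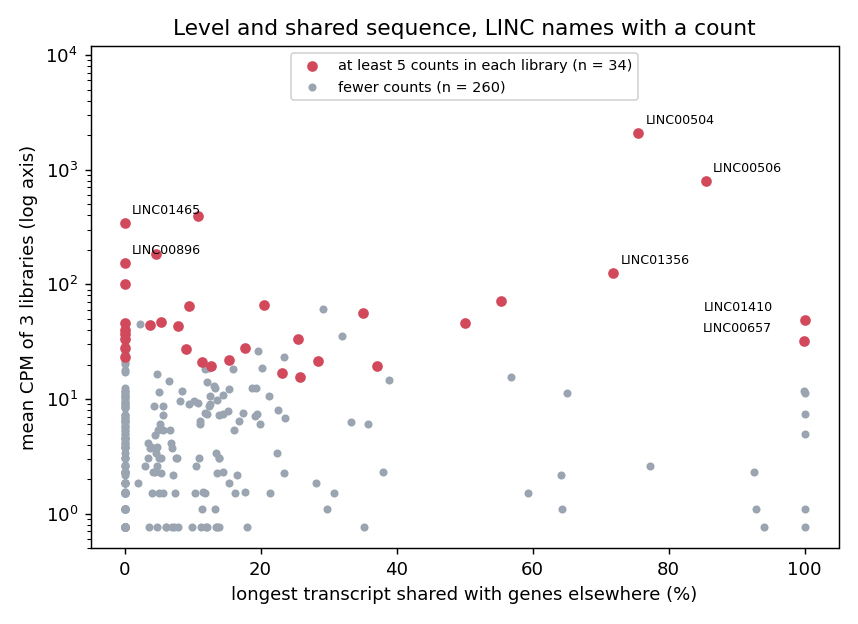
Mean level of 3 libraries (CPM, log axis) against the share of the longest transcript that matches transcripts of genes elsewhere, for 34 LINC genes with at least 5 counts in each library (red) and 260 LINC names with fewer counts (grey). LINC00504 (75.6%) and LINC00506 (85.4%) lie at the top right, whereas LINC01465 and LINC00896 reach 343 and 154 CPM at 0%.

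LINC00657 is NORAD, the non-coding RNA activated by DNA damage, an abundant cytoplasmic RNA with a role in genome stability. It lies on chromosome 20 (36045622 to 36050960, minus strand, a single exon of 5339 bases). It had 12, 7 and 16 counts, 32.1 ± 18.7 CPM (21.1 CPM without replicate 3) or 6.01 CPM per kb, and so lay below the median of the 37 genes on either scale. Nearly its whole transcript (5337 bases) matched other genes, of which HCG11 was best (90.5% over 4661 bases) and had 10, 5 and 2 counts.

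The name intergenic held for some of the genes and not for others. In GENCODE release 29, 34 of the 37 were found, 3 of them under a newer symbol, on 16 chromosomes. The annotation classed 24 as lincRNA, 4 as processed transcript, 3 as antisense, 2 as transcribed unprocessed pseudogene (LINC00674 and LINC00933) and 1, LINC00094, as protein-coding. The exons of 14 genes (41.2%) overlapped exons of a gene on the opposite strand, 5 (14.7%) lay opposite a gene body alone and 15 (44.1%) had no gene opposite. For all 3555 placed names past the minimum these shares were 64.5%, 13.7% and 21.8%, and for the 801 placed LINC names that did not pass they were 15.5%, 22.5% and 62.0%. By counts, 30.6% ± 7.47 of those under placed LINC genes belonged to names with opposite exons, against 86.2% ± 0.420 for all names past the minimum. The LINC share rests on LINC00504 and LINC00506, which have no opposite exons: without them it was 67.8% ± 2.86. The share over all names includes TSIX, which has opposite exons. TSIX held 17.9%, 28.5% and 17.1% of the gene-assigned counts in replicates 1, 2 and 3, and the share was not computed without it.

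**Figure D3:**
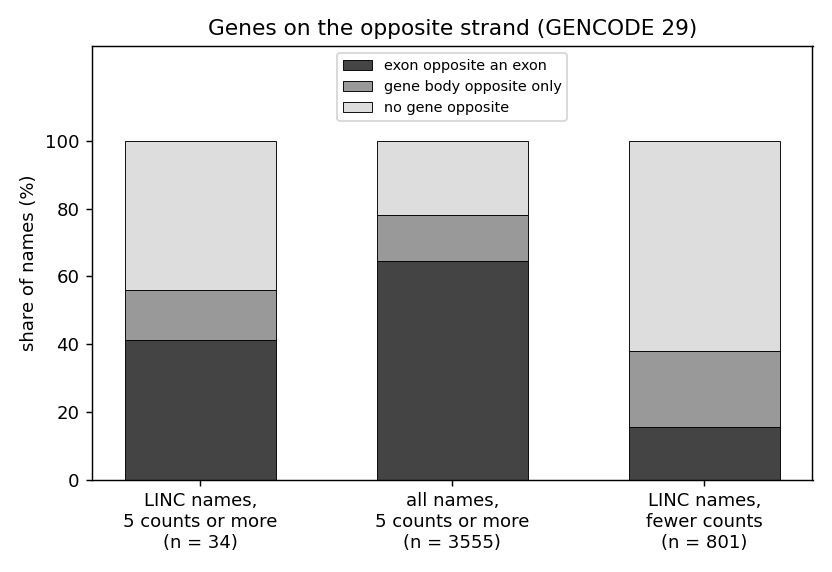
Share of names (%) whose exons overlap an opposite-strand exon (dark), that lie opposite a gene body alone (middle grey) or have no gene opposite (light), for the passing LINC genes (n = 34), all passing names (n = 3555) and LINC names with fewer counts (n = 801). Opposite exons were found for 41.2%, 64.5% and 15.5% of names.

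By CPM, the highest genes in the class with opposite exons were LINC00476, LINC01465 and LINC00094, opposite a gene body LINC00504, LINC01160 and LINC01410, and with no gene opposite LINC00506, LINC00896 and LINC01360. LINC01360 (chromosome 1, 73306170 to 73355253, plus strand) had 21, 23 and 12 counts, 46.9 ± 6.81 CPM, and was steady in CPM. Without LINC00504 and LINC00506, no gene of the other 2 classes exceeded LINC00476, at 398 CPM the highest with opposite exons.

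For 10 of the 14 genes a name with opposite exons was itself in the tables, and 8 lay opposite exons of a protein-coding gene. Per kilobase of exon the LINC gene was higher in all 3 libraries in 9 of the 10 pairs, and the remaining pair was mixed. Among the 9 are the pairs with TM9SF2, ATP5PO, ZNF717 and MIRLET7I, partners below 3 counts in each of the 3 libraries. The LINC genes were chosen for having counts and their partners were not, so this direction is in part fixed by the choice. LINC00476 shared 277 exonic bases with ERCC6L2, a DNA repair helicase gene, which had 26, 12 and 19 counts. Their levels were 78.0 ± 15.03 and 4.82 ± 1.87 CPM per kb. LINC00094 shared 1281 bases with BRD3, whose protein reads acetylated histones and which had 20, 29 and 13 counts, at 30.7 ± 2.27 and 7.53 ± 1.91 CPM per kb. In both pairs the level under the LINC name was several times higher in each library. The strand of the counts is not stated. For these and the other pairs, whether reads of shared bases came from the LINC gene or its partner was not tested.

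Other partners stood at or near 0. LINC01232 shared 351 bases with TM9SF2, a gene of a Golgi and endosome membrane protein at 0, 2 and 0 counts, and LINC00649 (43, 21 and 14 counts, 64.3 ± 29.5 CPM) shared 300 bases with ATP5PO, an ATP synthase subunit gene at 2, 0 and 0 counts. LINC00960 (11, 30 and 8 counts) shared 319 bases with the zinc finger gene ZNF717, at 0 in every library. LINC01465 overlapped the precursor of the let-7i microRNA, MIRLET7I, on the opposite strand by 5 bases, and that name was also at 0. These partners were thus below 3 counts in each library, while the LINC gene opposite had 8 or more.

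Other partners had counts in every library. LINC00294 (38, 26 and 7 counts, 56.6 ± 32.0 CPM) lies on chromosome 11 (33076149 to 33079454, plus strand, a single exon) opposite CSTF3, a gene of mRNA 3′ end cleavage with 14, 14 and 5 counts, at 17.1 ± 9.69 and 5.96 ± 2.00 CPM per kb. LINC01481 (11, 8 and 12 counts) lies opposite CNOT2, of the CCR4-NOT deadenylase, with 33, 14 and 25 counts, at 18.6 ± 7.24 and 4.53 ± 1.94 CPM per kb. LINC00936, or ATP2B1-AS1 (26, 12 and 13 counts), lies opposite ATP2B1, the plasma membrane calcium pump gene with 11, 22 and 9 counts, at 11.9 ± 4.38 and 3.71 ± 1.44 CPM per kb. LINC00936 was highest in replicate 1 and ATP2B1 in replicate 2. The mixed pair was LINC00933 (17, 12 and 10 counts) and UBE2Q2P1, a pseudogene of a ubiquitin-conjugating enzyme with 31, 12 and 20 counts, at 11.1 ± 1.87 and 17.0 ± 7.34 CPM per kb. Replicate 2 had equal counts for both names of that pair.

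Several of the genes start close to another gene or share exons with one on their own strand. A start site within 1000 bases of a divergent gene was found for 6 of them: LINC00167 and PRDM10 (103 bases apart), LINC00612 and A2M-AS1 (107), LINC00652 and AL035563.1 (194), LINC01465 and AC048341.2 (219), LINC00674 and AC145343.1 (434), and LINC00963 and AL353803.4 (913). PRDM10, a zinc finger transcription factor gene, had 1, 0 and 0 counts beside 11, 21 and 8 for LINC00167. Exons of 4 genes shared bases with a gene on their own strand, among them LINC01011 with NQO2 (292 bases) and LINC00598 with FOXO1 (269 bases). NQO2 was at 0 in every library and FOXO1 had 0, 0 and 6 counts.

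Neighbours with a known function were set beside the LINC gene after their values were seen. LINC00612 (chromosome 12, 9055586 to 9065070, minus strand) had 14, 26 and 6 counts, and A2M, the gene of the protease inhibitor alpha-2-macroglobulin on the same strand 2594 bases away, had 11, 23 and 4. Both names were highest in replicate 2 and lowest in replicate 3. Replicate 2 also had the most gene-assigned counts and replicate 3 the fewest. Of all called names 47.9% were highest in replicate 2 and 26.6% lowest in replicate 3. LINC01268, also called MROCKI for its regulation of MARCKS in human monocytes and macrophages, had 14, 31 and 9 counts, while MARCKS, 4542 bases away on the opposite strand, had 13, 2 and 9. In replicate 2 LINC01268 was at its highest and MARCKS at its lowest. LINC01426, at 10, 6 and 8 counts, neighboured the blood transcription factor gene RUNX1 (2915 bases away, opposite strand), at 7, 10 and 3. LINC01391, at 14, 5 and 8, neighboured the ovarian transcription factor gene FOXL2 (204 bases away, same strand), at 1, 0 and 4. LINC01465, at 171, 137 and 98, neighboured MON2 (1272 bases away, opposite strand), at 2, 0 and 4. With 3 libraries no correlation was computed.

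Differences between libraries beyond counting noise were called for 14 of the 37 genes (37.8%), against 37.6% of all 3798 names tested (edgeR deviance of a Poisson fit, Benjamini-Hochberg adjusted p under 0.05). The minimum of 5 counts chose the genes from these same libraries, and the share lies at the background. It grew with depth in all names: among names with 15 to 49 counts in all, 3 of 18 LINC genes were called against 12.1% of all names; at 50 to 149 counts, 7 of 13 against 41.3%; and at 150 or more, 4 of 6 against 61.3%. Of the 14 called genes 5 were highest in replicate 1, 6 in replicate 2 and 3 in replicate 3, and 8 were lowest in replicate 3. Of all called names 26.1%, 47.9% and 26.0% were highest in replicates 1, 2 and 3, and 26.6% were lowest in replicate 3; the difference was not tested. In fits of 2 libraries the calls were 9 without replicate 1 (21.9% of all names), 6 without replicate 2 (7.73%) and 9 without replicate 3 (26.2%), and among the 17 genes with at least 10 counts in each library they were 8 (45.8%). A negative binomial fit used the common biological coefficient of variation of 0.300, estimated from these same 3 libraries. With it edgeR called 0 genes (0.0% of all names), and 2 had an unadjusted p under 0.05. Since the spread that was tested also set the null, this outcome is in part fixed.

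**Figure D4:**
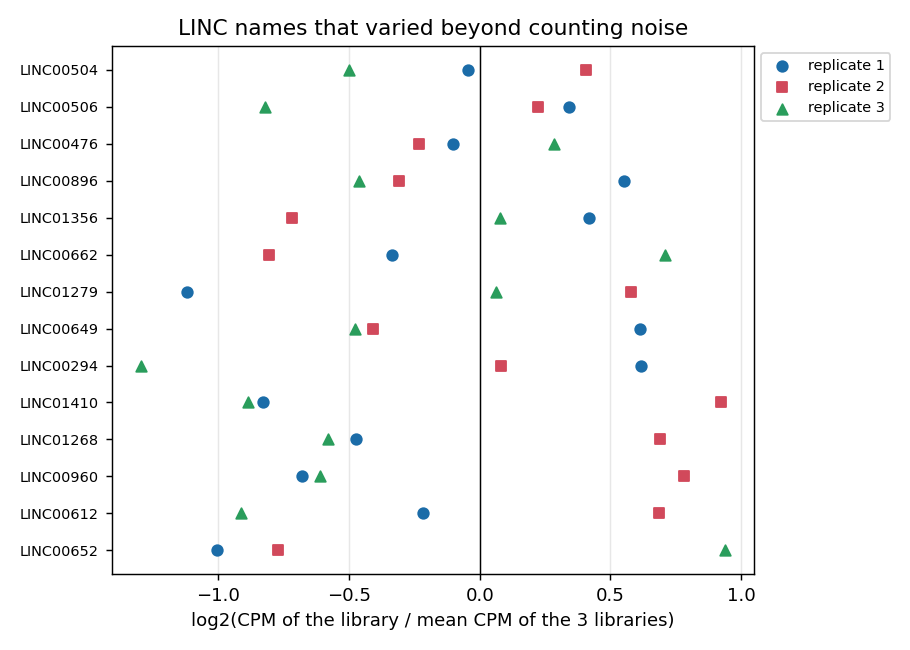
Log2 ratio of the CPM in each library to the mean CPM of the 3 libraries, for the 14 LINC genes called by the edgeR deviance test. LINC01410, LINC01268, LINC00960 and LINC00612 were highest in replicate 2, and LINC00662, LINC00652 and LINC00476 in replicate 3.

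LINC00504 and LINC00506 had the smallest adjusted p of the list, 7.5e-30 and 4.8e-17 (edgeR, Benjamini-Hochberg), with the highest library at 1.87 and 2.24 times the lowest in CPM. LINC00504 was also the only gene of the 14 that was called in each fit of 2 libraries. LINC00506 was not called without replicate 3 (edgeR adjusted p = 0.89). Size was measured as the coefficient of variation in excess of counting noise. On this measure LINC00504 and LINC00506 had 0.307 and 0.375, beside the common biological coefficient of variation of 0.300. Among the called genes LINC01410 led with 0.741. It had 12, 40 and 8 counts, 48.7 ± 37.7 CPM, and 28.4 CPM without replicate 2 (edgeR adjusted p = 0.00015). LINC00652 followed with 0.724, at 6, 7 and 16 counts, 27.5 ± 21.9 CPM, and 14.6 CPM without replicate 3 (edgeR adjusted p = 0.013). LINC01410 stood out in replicate 2 and LINC00652 in replicate 3, each with the other libraries close together.

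Among the called genes, the other large excess values were 0.571 for LINC00960 (40.2 ± 25.1 CPM, edgeR adjusted p = 0.010), 0.535 for LINC00662 (edgeR adjusted p = 0.00019), 0.526 for LINC00294 (edgeR adjusted p = 0.0048), 0.489 for LINC00612 (37.2 ± 20.6 CPM, edgeR adjusted p = 0.044), 0.480 for LINC01279 (edgeR adjusted p = 0.00097) and 0.472 for LINC01268 (44.4 ± 23.5 CPM, edgeR adjusted p = 0.029). LINC00657 had 0.502 but was not called (edgeR adjusted p = 0.055). The remaining called genes were LINC00476 (edgeR adjusted p = 0.023), LINC00896 (0.00046), LINC01356 (0.0024) and LINC00649 (0.020). LINC01465 and LINC00094, with means of 343 and 184 CPM, were not called (edgeR adjusted p = 0.23 and 0.78). With total counts in place of TMM, LINC01465, LINC00657 and LINC01011 gained a call (edgeR adjusted p = 0.013, 0.023 and 0.027) and LINC00612 and LINC01268 lost theirs (edgeR adjusted p = 0.12 and 0.10). Over the called genes the highest library was 1.43 to 3.84 times the lowest in CPM.

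LINC01410 and LINC00960, both highest in replicate 2, share a stretch of 168 bases at 93.5% identity in the same orientation, on chromosomes 9 and 3. The whole longest transcript of LINC01410 (2877 bases) also matched CR786580.1 at 97.9%. The LINC00960 match lies in a shorter transcript than its longest, which shared no sequence with genes elsewhere. Of all called names 47.9% were highest in replicate 2, and a link between the shared stretch and the counts was not tested.

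Lists of LINC names with a known function or use were set beside the 37 genes, against the background of 4.22% of all LINC names that passed. Of 8 names that later work found to encode microproteins, 7 were in the tables, none passed the minimum and 4 had no count (LINC00493, LINC01420, LINC00961 and LINC00467). LINC00116, the source of the mitochondrial peptide mitoregulin, had 2, 5 and 2 counts, LINC00908 had 7, 1 and 0, and LINC00998 had 2, 0 and 0. Of 4 hosts of microRNAs or circular RNAs, 3 were in the tables and none passed. LINC00461 had 4, 4 and 3 counts, LINC00632, the precursor of the circular RNA CDR1as, had 6, 2 and 1, and LINC00599 had none.

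Of 15 LINC names often studied in cancer cells, 14 were in the tables and 3 passed, namely LINC00662, LINC00294 and LINC00657. LINC00511, LINC00673, LINC00152 and LINC01116 had no count. The other 7 fell below the minimum, among them LINC00958 (10, 5 and 1 counts), LINC00665 (8, 1 and 1), LINC00472 (4, 1 and 0), LINC00473 (0, 4 and 0), LINC00667 (3, 0 and 0), LINC00460 (0, 2 and 0) and LINC01133 (0, 1 and 0). Of 3 names from pluripotent stem cells none passed, with LINC00678 at 1, 2 and 0 counts, LINC00458 at 1, 0 and 0 and LINC01108 at 0. All 4 lists were written with earlier results of these data known, so their counts are a description.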

How the data were processed

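The authors deposited raw whole-number counts per gene symbol, 1 table per library. Per the submitters' processing notes the tools were Trimmomatic, TopHat2 (given as 2.2.5) and HTSeq (0.11.2) with hg38; sources used here do not give the gene annotation, strand option or read filters. The 5 summary lines (no feature 91.2% of records) entered neither library sizes nor tests.

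The members and lists were chosen with earlier results of these data known. CPM used TMM library sizes (edgeR 4.0.16, R 4.3.3). All 3798 names with at least 5 counts in each library were fitted at dispersion 0 with an intercept; residual deviances were set against chi-square (2 degrees of freedom), with Benjamini-Hochberg adjustment. Replicate numbers came from the labels. The script was tested on simulated counts.

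Names were matched to GENCODE 29 (GRCh38), 23900 by name and 679 by an older symbol (92.8%); LINC00312, LINC01530 and LINC01279 had no match there. Exons were merged per gene and any shared base counted. Transcripts were aligned with megablast (BLAST 2.17.0). Some sequences and a motif search are not reported here. Python 3.11.15, pandas 2.3.3, scipy 1.17.1 and matplotlib 3.10.9 were used.

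Named genes were the 12 highest by CPM, 8 with the largest excess variation among those called, 3 highest per position class, 5 highest per kilobase, up to 6 on each side of the count minimum, list symbols and opposite-strand partners. KCNQ1OT1, SOD2, HCG11, CCDC80, divergent, same-strand and neighbouring genes, and the other members were named after their values were seen. Alternatives included DESeq2 1.42.0 size factors.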

Additional observations from a re-analysis of the deposited data

Results flagged for a closer look

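LINC-PINT, a named LINC gene whose symbol holds letters and so falls outside the rule of LINC and digits, had 24 counts over the 3 libraries (9, 9 and 6, or 20.4 ± 0.517 CPM), above the limit that a count of 0 allows. It enters the values over all names past the minimum but none of those for the 37 LINC genes. LINC-ROR, of the same form, had 2, 4 and 0 counts.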

How the results depend on the processing

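The number of LINC genes was 62 at a minimum of 3 counts and 17 at 10, 38 with any symbol that starts with LINC, and 41 to 55 with each replicate left out. The negative binomial null took its dispersion from these same 3 libraries, so a result near 0 calls is in part fixed by the fit. Under this null 2 of the LINC genes and 218 names (5.74%) had an unadjusted p under 0.05. Calls for variation under it were 0 (0.0% of all names). They were 8 at a minimum of 10 counts (17 genes tested; all names 45.8%) and 6 to 9 with each replicate left out: 9 without replicate 1 (all names 21.9%), 6 without replicate 2 (7.73%) and 9 without replicate 3 (26.2%). They were 15 with total counts (2 lost and 3 gained), 14 with DESeq2 size factors, 15 with the Pearson statistic and 13 without a filter. The share of gene-assigned counts was 0.668% without TSIX and 0.492% to 0.557% with a replicate left out. The median CPM was 55.3 without TSIX and 37.9 to 45.2 with a replicate left out. Genes with opposite exons numbered 9 at a minimum of 10 counts, 12 at 100 shared bases and 10 with opposite genes in the tables alone. Leaving out 1 library moved the mean CPM of 4 of the 37 genes by over 1.5 times: LINC00662, LINC00657 and LINC00652 without replicate 3 and LINC01410 without replicate 2. No paired analysis was possible because there was 1 group. Depth limits the genes near 5 counts, whose place in the list can turn on 1 count.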
